A study of Mus musculus with 8 samples.

Results

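The genes of the matrix metalloproteinases (Mmp), of the Adamts proteases and of their tissue inhibitors (Timp) were read in mouse liver with and without hepatocyte deletion of Ctcf. They were chosen by symbol: Mmp with a number and an optional a or b, Adamts with a number only, and Timp1 to Timp4. This gave 46 of 52636 listed genes, 23 Mmp, 19 Adamts and 4 Timp genes. Bulk RNA was sequenced from 4 control samples (WT, genotype CTCF fl/fl Albcre-) and 4 knockout samples (cKO, genotype CTCF fl/fl Albcre+) of 8 week old C57BL/6 mice. Both genotypes carried the floxed Ctcf allele, and Cre is present only in cKO. The albumin promoter drives it in hepatocytes, and other liver cells are not its main target. The labels do not say that each sample is a separate mouse, so the p-values rest on the spread among the 8 samples, which may be technical. No group used here has Cre without the floxed allele.

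Mmp proteins are zinc proteases that cut collagens, gelatin, elastin and other parts of the extracellular matrix, and most are made as inactive proenzymes. Adamts proteins are secreted relatives with thrombospondin repeats that cut proteoglycans, trim procollagens or cut von Willebrand factor. Timp proteins bind the active site of Mmps, and Timp3 also inhibits several Adam and Adamts proteases. In liver these genes are known mainly from stellate cells, the pericytes that store vitamin A and lay down matrix, and from macrophages and endothelium.

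Libraries held 43.9 to 57.3 M assigned counts (M stands for 1e6), 46.1 ± 2.93 M for WT and on average more for cKO, 52.4 ± 3.29 M (SD, n = 4 each). Ctcf read 16.8, 16.9, 16.3 and 16.0 CPM (a count scaled to library size and composition) in WT and 12.0, 13.1, 12.7 and 10.9 CPM in cKO. The genotypes did not overlap, in the direction of the labels, with a log2 change of cKO over WT of -0.44 (SE 0.08, edgeR adjusted p = 0.00177). In TPM the genotypes overlapped, and limma on log2(TPM + 1) gave a log2 change of -0.15 (adjusted p = 0.138). Hepatocyte markers were abundant in every library, with 11 genes such as Alb and Apoa1 summing to 101165 to 135294 TPM (a level scaled to gene length) in WT and 108726 to 118032 TPM in cKO.

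Of the 46 genes, 23 had enough counts to be tested (11 Mmp, 10 Adamts, 2 Timp), 18 had some counts but too few, and 5 had none (Mmp1a, Mmp1b, Mmp10, Mmp20 and Adamts20). Of the 23 tested, 10 rose in cKO, 0 fell and 13 did not pass the threshold of an adjusted p of 0.05. The 10 were Mmp2, Mmp12, Mmp17, Adamts1, Adamts2, Adamts5, Adamts13, Adamts15, Timp2 and Timp3. Over all 15562 genes tested, 30.1% were called, 15.2% higher and 14.9% lower. The same 10 were the only tested members with every cKO library above every WT library, which held for 15.0% of all genes. Of the 23 tested members, 9 were called and at least 2-fold higher, all of the 10 but Adamts13, against 3.69% of all genes tested. The members' median log2 change was 0.44 and that of all genes -0.01, and 20 of the 23 had a positive log2 change against 49.2% of all genes. The minimum level was reached in all 4 WT libraries by 21 of the 23, and Mmp12 passed through the cKO libraries, in which it is high. At an unadjusted p of 0.05, 12 members were higher and 2 lower, the latter being Adamts6 and Adamts7. DESeq2 called 1 member lower, Adamts7, and limma on log2 TPM called 0.

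**Figure D1:**
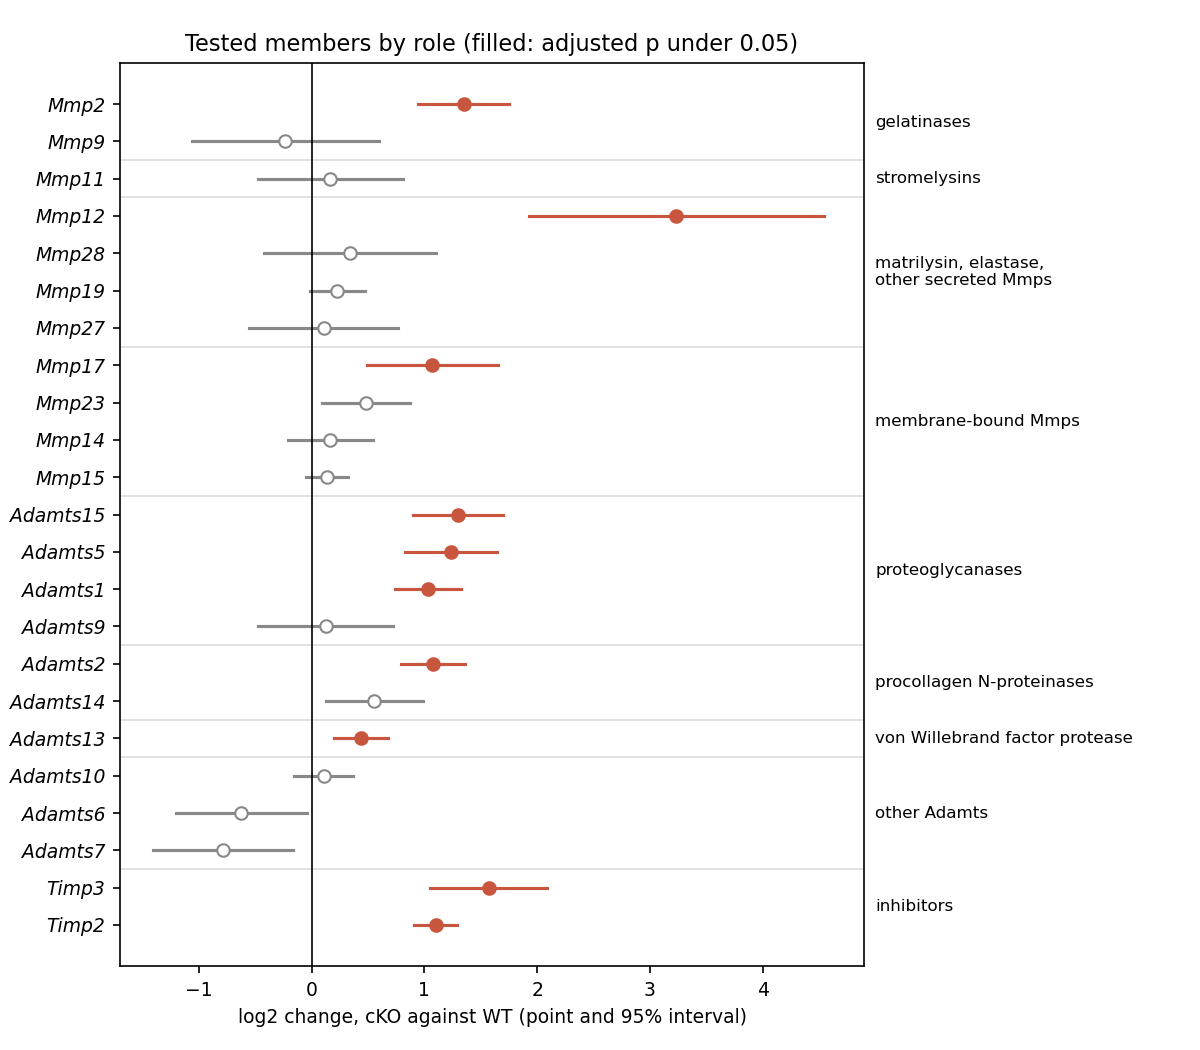
Log2 change of cKO over WT of each tested Mmp, Adamts and Timp gene, with its 95% interval from edgeR's quasi-likelihood fit. The 10 genes past an adjusted p of 0.05 all lie to the right of 0, Mmp12 farthest with the widest interval, and Adamts6 and Adamts7 lie lowest.

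Per length, expression of the 3 groups was concentrated in a few genes. Mmp19 had the highest mean over the 8 libraries (16.4 TPM), ahead of Mmp14 (12.0 TPM) and Mmp15 (6.12 TPM), and these 3 made 39.1%, 28.5% and 14.6% of the Mmp total. Timp2 (5.95 TPM) and Timp3 (4.49 TPM) made 55.8% and 42.1% of the Timp total. Among Adamts genes the order differed between genotypes: in WT Adamts7 (4.38 TPM) came before Adamts10 (3.87 TPM) and Adamts13 (1.74 TPM), and in cKO Adamts10 (4.54 TPM) came before Adamts13 (2.60 TPM) and Adamts7 (2.55 TPM). The 12 members with a mean of at least 1 TPM included 5 of the 10 that rose, while Mmp19, Mmp14 and Mmp15 were not called. Summed Timp expression was 6.02 ± 0.620 TPM in WT and 15.3 ± 2.24 TPM in cKO (SD, n = 4 each), ranging from 5.19 to 6.60 and from 13.5 to 18.6 TPM. The Mmp sum was 35.5 ± 1.60 TPM in WT and 48.5 ± 5.85 TPM in cKO, again without overlap (33.2 to 36.8 against 41.8 to 55.4 TPM). The Adamts sum overlapped, 12.9 ± 2.20 TPM in WT (10.5 to 15.8) and 15.4 ± 0.592 TPM in cKO (14.8 to 16.2). TPM carries no correction for library composition, and on log2(TPM + 1) the median of all genes was itself 0.12 higher in cKO.

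**Figure D2:**
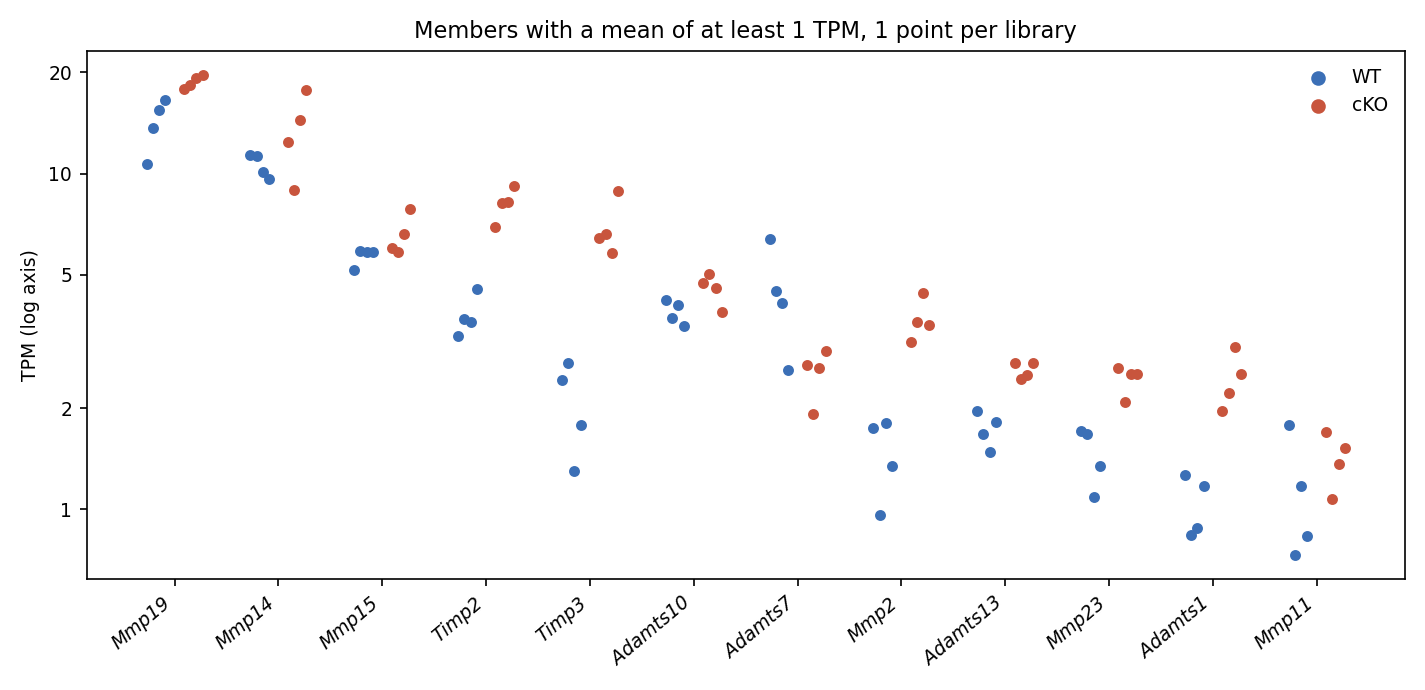
TPM on a log axis of the 12 members with a mean of at least 1 TPM, with each of the 4 WT and 4 cKO libraries as a point. Mmp19, Mmp14 and Mmp15 stand first, and Timp2 and Timp3 sit higher in all 4 cKO libraries.

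Both inhibitors that could be tested rose, each at least 2-fold. Timp2, which inhibits Mmps and also helps Mmp14 to activate pro-Mmp2, read 9.71, 8.68, 8.66 and 9.36 CPM in WT and 19.0, 17.0, 21.0 and 21.2 CPM in cKO. All 4 cKO libraries lay well above the WT libraries. Its mean rose from 9.10 ± 0.519 CPM in WT to 19.5 ± 1.97 CPM in cKO (SD, n = 4 each), 2.15-fold with a 95% interval of 1.88 to 2.45 (log2 change 1.10, SE 0.09, edgeR adjusted p = 1.69e-05). Timp3, which is bound to the matrix, read 10.5, 11.6, 5.75 and 7.70 CPM in WT and 25.1, 25.9, 21.7 and 33.2 CPM in cKO. WT replicates 3 and 4 were lowest, and every cKO library stood above every WT library. Its mean rose from 8.91 ± 2.68 CPM in WT to 26.5 ± 4.85 CPM in cKO (SD, n = 4 each), 2.97-fold with a 95% interval of 2.07 to 4.25 (log2 change 1.57, SE 0.23, edgeR adjusted p = 0.00197). Timp2 was the larger part of Timp expression in both genotypes, 63.0 ± 8.61% of the TPM sum in WT and 53.3 ± 3.62% in cKO, and Timp3 made 33.8 ± 8.49% and 45.1 ± 3.31%. Timp1, the inhibitor best known as induced in injured liver, was near the limit of detection, with 7, 5, 7 and 1 counts in WT and 4, 10, 4 and 16 in cKO. The genotypes overlapped, and the gene was too low for the test. Timp4 had 1, 0, 3 and 0 counts in WT and 0, 0, 5 and 1 in cKO. In bulk liver, more or fewer cells of a type and more or less RNA per cell cannot be told apart. The stellate cell and fibroblast markers summed to 214 to 233 TPM in WT and 361 to 491 TPM in cKO. Of these 20 markers, 18 were higher, against 15.2% of all genes tested. The part of these markers in the rise of Timp2 and Timp3, and of Mmp2 and the Adamts genes given further on, was not tested.

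Timp2 lies on chromosome 11, 118301061 to 118355411, Timp3 on chromosome 10, 86300412 to 86349505 (GRCm38). Timp1, Timp3 and Timp4 each lie inside a synapsin gene, Syn1, Syn3 and Syn2, and reads of overlapping genes may be shared where the strand setting of the counting is not given. Syn3 averaged 5.52 CPM in WT and 5.40 CPM in cKO (log2 change -0.03, edgeR adjusted p = 0.922), while Timp3 inside it rose.

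**Figure D3:**
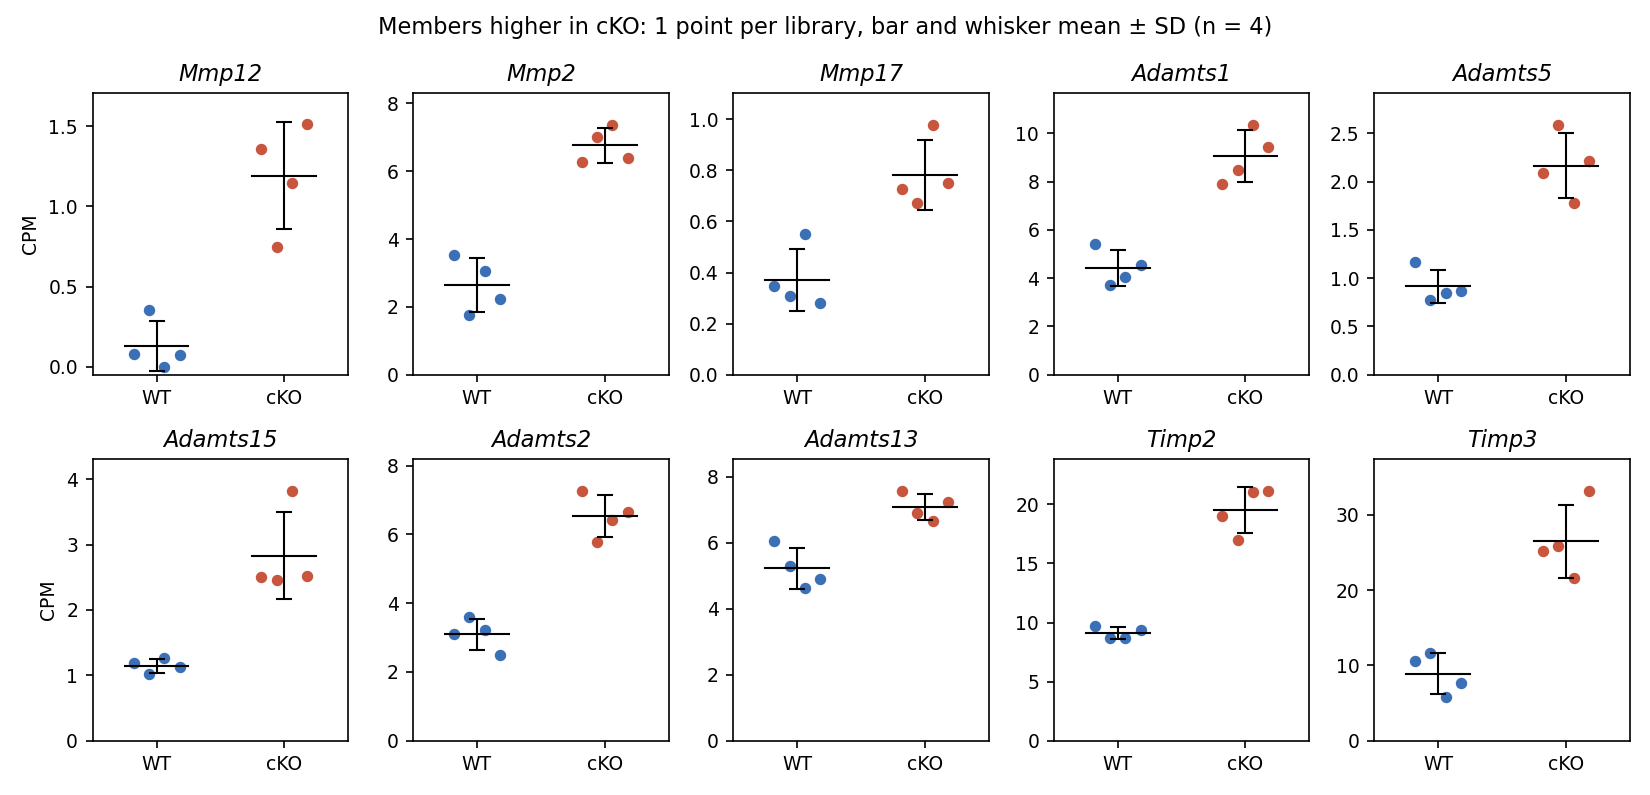
CPM of the 10 members that rose, 1 panel each, with 4 WT and 4 cKO libraries as points and a bar and whisker for the mean and SD. In all 10 panels the lowest cKO library lies above the highest WT library, and Mmp12 has its WT libraries near 0.

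Of the gelatinases, Mmp2 rose and Mmp9 did not pass. Mmp2, the gelatinase that cuts denatured and basement membrane collagen (chromosome 8, 92827290 to 92853421), read 3.53, 1.77, 3.07 and 2.22 CPM in WT and 6.28, 7.02, 7.37 and 6.39 CPM in cKO. The cKO libraries were all above the WT libraries. The mean went from 2.65 ± 0.797 CPM in WT to 6.76 ± 0.520 CPM in cKO (SD, n = 4 each), 2.54-fold with a 95% interval of 1.92 to 3.37 (log2 change 1.35, SE 0.19, edgeR adjusted p = 0.000484). Mmp9, the other gelatinase, was low and overlapped, 0.469, 0.307, 0.390 and 0.375 CPM in WT and 0.268, 0.614, 0.166 and 0.273 CPM in cKO, and its log2 change of -0.23 (95% interval -1.06 to 0.60, edgeR adjusted p = 0.674) did not pass.

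Of the 4 tested membrane-bound Mmps, 1 rose, Mmp17, and the more expressed Mmp14 and Mmp15 did not pass. Mmp17, a membrane protease anchored by a lipid, was low, with 0.347, 0.307, 0.550 and 0.281 CPM in WT and 0.727, 0.671, 0.979 and 0.749 CPM in cKO. The lowest cKO library was above the highest WT library. It rose from 0.371 ± 0.122 CPM in WT to 0.782 ± 0.136 CPM in cKO (SD, n = 4 each), 2.10-fold with a 95% interval of 1.40 to 3.14 (log2 change 1.07, SE 0.27, edgeR adjusted p = 0.0114). Mmp14, the membrane-bound activator of pro-Mmp2, read 25.6, 25.2, 22.7 and 21.6 CPM in WT and 25.5, 18.4, 27.8 and 34.9 CPM in cKO. Its cKO libraries spread on both sides of WT, from the lowest to the highest value of all 8. The log2 change of 0.17 (95% interval -0.21 to 0.54, edgeR adjusted p = 0.487) did not pass. Without cKO replicate 2 it was 0.32 (edgeR adjusted p = 0.0498), and without cKO replicate 4 it was 0.00834 (edgeR adjusted p = 0.9735). Mmp14 passed under 1 of 17 other settings. Mmp15, also membrane-bound, read 22.0, 25.6, 24.4 and 23.9 CPM in WT and 24.5, 24.2, 26.1 and 30.6 CPM in cKO and overlapped, with a log2 change of 0.14 (95% interval -0.05 to 0.32, edgeR adjusted p = 0.242). Mmp23, a small Mmp anchored by its amino end, read 1.71, 1.53, 1.08 and 1.22 CPM in WT and 2.16, 1.71, 1.87 and 2.03 CPM in cKO. Only the lowest cKO library and the highest WT library met. Its log2 change of 0.48 (95% interval 0.09 to 0.87, edgeR adjusted p = 0.0602) did not pass. Without WT replicate 1 it was 0.60 (edgeR adjusted p = 0.0381), and without WT replicate 3 it was 0.38 (edgeR adjusted p = 0.1575). Mmp23 partly overlaps Mib2, which fell from 27.8 to 20.3 CPM (log2 change -0.46, edgeR adjusted p = 0.00401).

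On chromosome 9, a cluster of 427 kb (7272514 to 7699585, GRCm38) holds 10 Mmp genes, among them the collagenases, stromelysins and matrilysin known as inducible by inflammation. Of these 10, Mmp12 and Mmp27 could be tested, 4 had no count in any library, and Mmp12 rose. Mmp12, the macrophage elastase (chromosome 9, 7344397 to 7360461), read 0.0816, 0.354, 0 and 0.0702 CPM in WT and 1.36, 0.748, 1.15 and 1.52 CPM in cKO. WT replicate 3 had no count, which allows up to 0.0687 CPM, and WT replicate 2 was the highest WT library, still below all cKO libraries. The means were 0.126 ± 0.156 CPM in WT and 1.19 ± 0.333 CPM in cKO (SD, n = 4 each), 9.42-fold with a 95% interval of 3.80 to 23.4 (log2 change 3.24, SE 0.59, edgeR adjusted p = 0.00332), from 22 counts in the 4 WT libraries and 261 in the 4 cKO libraries. Without WT replicate 2 the log2 change was 4.47 (edgeR adjusted p = 0.000505).

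The neighbours of Mmp12 in the cluster were low. Mmp27 read 0.245, 0.661, 0.527 and 0.726 CPM in WT and 0.612, 0.614, 0.517 and 0.562 CPM in cKO and overlapped, with a log2 change of 0.11 (95% interval -0.55 to 0.77, edgeR adjusted p = 0.820). The collagenase Mmp13 had 4, 8, 3 and 4 counts in WT and 18, 16, 11 and 8 in cKO, too few for the test, and WT replicate 2 lay above cKO replicate 4 on the CPM scale. Mmp3, a stromelysin, had 2, 2, 6 and 1 counts in WT and 4, 3, 11 and 4 in cKO. Mmp7, the matrilysin, had 5, 7, 9 and 9 counts in WT and 3, 4, 6 and 1 in cKO, and Mmp8, the neutrophil collagenase, 1, 2, 0 and 4 counts in WT and 1, 9, 9 and 2 in cKO. In Mmp3, Mmp7 and Mmp8 the genotypes overlapped. The nearest protein-coding genes outside the cluster were Dcun1d5 at 52 kb (log2 change 0.20, edgeR adjusted p = 0.0671) and Dync2h1 at 94 kb (log2 change -0.28, edgeR adjusted p = 0.162) before it, and Tmem123 at 64 kb (log2 change 0.29, edgeR adjusted p = 0.0290) and Birc2 at 119 kb (log2 change -0.21, edgeR adjusted p = 0.0874) after it. Lipid-associated and recruited macrophage markers summed to 61.2 to 73.0 TPM in WT and 88.3 to 144 TPM in cKO. Of these, 6 of 12 tested were higher and Spp1 was lower. Kupffer cell markers summed to 276 to 422 TPM in WT and 268 to 422 TPM in cKO, with 1 of 12 higher. The share over all genes tested was 15.2% higher and 14.9% lower. The part of either marker list in Mmp12 was not tested.

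**Figure D4:**
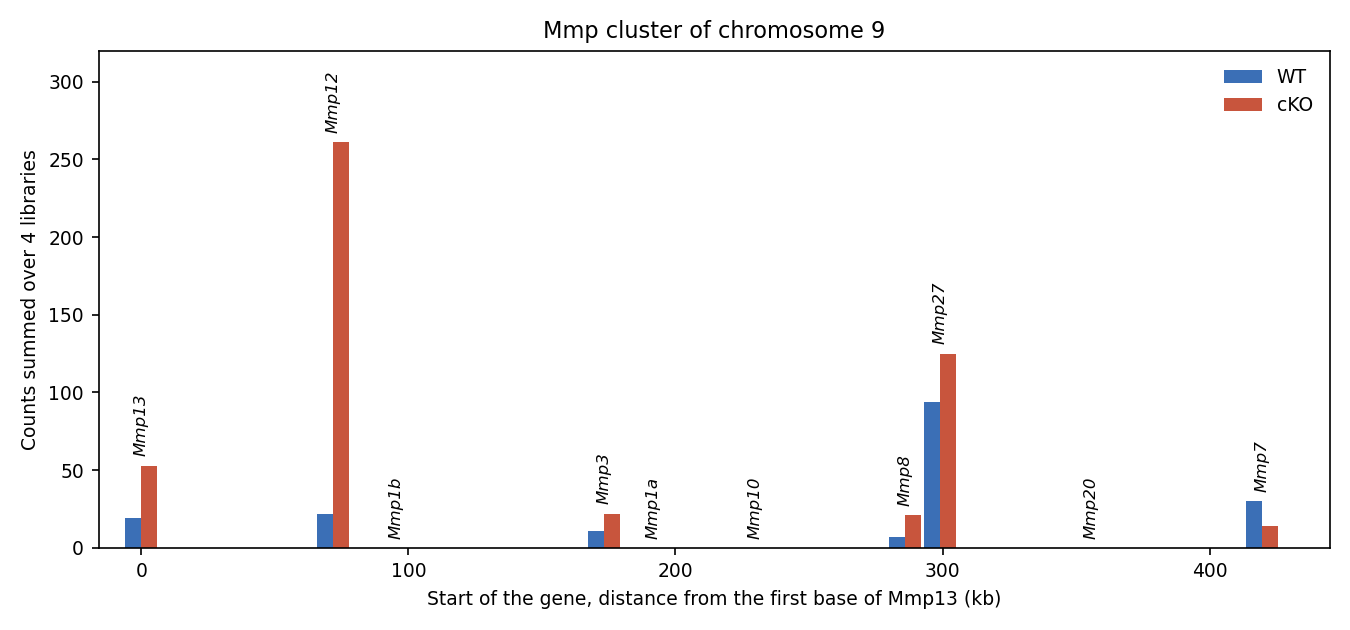
Counts summed over 4 WT and over 4 cKO libraries for the 10 Mmp genes of the chromosome 9 cluster, placed by the distance of their start from that of Mmp13. Mmp12 holds 22 WT and 261 cKO counts, Mmp27 holds 94 and 125, and Mmp1a, Mmp1b, Mmp10 and Mmp20 hold 0.

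The promoters of the cluster differed in letters from those of the other members. RefSeq promoters (GRCm38.p6, 250 bases before to 50 after the start) were found for 32 of the 46 members. The letters TGANTCA, which include the consensus of the AP-1 factors Fos and Jun and read the same on both strands, were in the promoters of 8 of the 10 cluster genes and 0 of the 22 others, against 7.81% of 32851 promoters. TATAAA on the gene's strand was in 8 of 10 and 2 of 22 (8.32% of all), and CCGCCC on either strand, the core letters of GC boxes, in 0 of 10 and 18 of 22 (35.7% of all). GC content was 37.7 to 52.0% in the cluster and 53.3 to 80.0% outside it, with a median of 52.7% over all promoters. Mmp8 and Mmp27 lacked TGANTCA, and Mmp12 and Mmp7 each had it at 1 of their 2 starts. Members are counted here as genes with a match at any start, while the shares over all are per promoter. Counted per promoter, 8 of 35 member promoters (22.9%) held TGANTCA. Genes with these letters had no count at all in 4 cases (Mmp1a, Mmp1b, Mmp10 and Mmp20) and rose in 1 (Mmp12). A match is a description of the letters and not a site. The 110 bases before the start follow for 5 cluster genes, 2 of them with no count, with TGANTCA in capitals. For Mmp12 the window shown is that of the downstream start, inside the gene as placed above. The Mmp12 promoter at the first base of the gene, 7344397, held no TGANTCA. No printed TGANTCA overlaps a TATAAA.
Mmp12, chr9:7347264-7347373, plus strand: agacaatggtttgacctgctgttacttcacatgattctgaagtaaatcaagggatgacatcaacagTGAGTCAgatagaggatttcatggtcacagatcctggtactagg
Mmp13, chr9:7272404-7272513, plus strand: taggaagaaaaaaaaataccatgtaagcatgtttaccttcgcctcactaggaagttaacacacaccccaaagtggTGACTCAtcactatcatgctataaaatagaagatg
Mmp3, chr9:7445712-7445821, plus strand: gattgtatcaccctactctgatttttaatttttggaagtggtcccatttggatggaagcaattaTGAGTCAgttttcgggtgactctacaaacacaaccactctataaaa
Mmp1a, chr9:7464031-7464140, plus strand: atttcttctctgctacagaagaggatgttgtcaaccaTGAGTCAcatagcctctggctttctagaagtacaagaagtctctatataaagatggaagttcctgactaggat
Mmp10, chr9:7502232-7502341, plus strand: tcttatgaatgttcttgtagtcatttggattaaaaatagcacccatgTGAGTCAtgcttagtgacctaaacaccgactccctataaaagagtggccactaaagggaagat

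For contrast, 4 of the members outside the cluster that rose are shown in the same window with CCGCCC, or GGGCGG on the other strand, in capitals. CCGCCC was in all 5 such members with a promoter in the table, but also in all 7 outside the cluster that were not called and in 6 of the 10 not tested, so it did not set apart the genes that rose. None of these 22 held TGANTCA. Of the 5, Adamts13 is not shown, and its only CCGCCC lies after the start, outside this window.
Timp2, chr11:118355412-118355521, minus strand: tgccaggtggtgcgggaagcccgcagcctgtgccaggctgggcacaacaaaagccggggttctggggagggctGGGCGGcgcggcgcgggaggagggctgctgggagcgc
Timp3, chr10:86300302-86300411, plus strand: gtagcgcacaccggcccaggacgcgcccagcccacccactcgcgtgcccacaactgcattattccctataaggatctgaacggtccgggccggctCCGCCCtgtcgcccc
Adamts1, chr16:85803114-85803223, minus strand: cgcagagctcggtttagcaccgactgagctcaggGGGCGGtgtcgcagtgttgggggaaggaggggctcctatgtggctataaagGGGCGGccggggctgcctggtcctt
Adamts2, chr11:50601975-50602084, plus strand: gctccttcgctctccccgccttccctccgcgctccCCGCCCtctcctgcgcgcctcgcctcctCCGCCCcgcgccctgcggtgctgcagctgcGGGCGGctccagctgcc

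Mmp19, Mmp11 and Mmp28, which are secreted and lie outside the cluster, did not pass. Mmp19, the most expressed member, read 32.6, 40.8, 47.2 and 50.3 CPM in WT and 48.6, 50.8, 50.3 and 50.6 CPM in cKO. WT replicate 1 was lowest, and WT replicate 4 lay within the narrow cKO range. Its mean was 42.7 ± 7.82 CPM in WT and 50.1 ± 1.02 CPM in cKO (SD, n = 4 each), with a log2 change of 0.23 (95% interval -0.02 to 0.47, edgeR adjusted p = 0.147). Without WT replicate 4 the log2 change was 0.32 (edgeR adjusted p = 0.0385), and without WT replicate 1 it was 0.12 (edgeR adjusted p = 0.308). In TPM the genotypes did not overlap, with 14.1 ± 2.56 TPM in WT and 18.8 ± 0.835 TPM in cKO (SD, n = 4 each). Mmp19 partly overlaps Tmem198b, which fell from 22.9 to 14.0 CPM (log2 change -0.71, edgeR adjusted p = 0.00243). Mmp11, a stromelysin cut to its active form inside the cell, read 1.59, 0.637, 0.848 and 0.702 CPM in WT and 1.32, 1.04, 0.776 and 1.14 CPM in cKO, with a log2 change of 0.17 (95% interval -0.48 to 0.81, edgeR adjusted p = 0.700). Mmp28, epilysin, stayed between 0.115 and 0.324 CPM, with a log2 change of 0.34 (95% interval -0.42 to 1.11, edgeR adjusted p = 0.487). For both, the genotypes overlapped.

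Of the 4 tested Adamts genes for proteases of proteoglycans, 3 rose, by 2.04-fold to 2.46-fold. Adamts1, which cuts versican and aggrecan (chromosome 16, 85793827 to 85803113), read 5.41, 3.70, 4.03 and 4.54 CPM in WT and 7.92, 8.47, 10.4 and 9.45 CPM in cKO. The lowest cKO library was clear of the highest WT library. It rose from 4.42 ± 0.741 CPM in WT to 9.05 ± 1.08 CPM in cKO (SD, n = 4 each), 2.04-fold with a 95% interval of 1.67 to 2.50 (log2 change 1.03, SE 0.13, edgeR adjusted p = 0.000332). Adamts5, the main aggrecanase of mouse cartilage, lies 55 kb from it (chromosome 16, 85858157 to 85901125) and read 1.16, 0.778, 0.848 and 0.866 CPM in WT and 2.09, 2.59, 1.77 and 2.21 CPM in cKO. WT replicate 1 was the highest WT library and still below every cKO library. It rose from 0.914 ± 0.170 CPM in WT to 2.17 ± 0.337 CPM in cKO (SD, n = 4 each), 2.36-fold with a 95% interval of 1.78 to 3.13 (log2 change 1.24, SE 0.19, edgeR adjusted p = 0.000836). Adamts15 (chromosome 9, 30899155 to 30922452) read 1.18, 1.01, 1.26 and 1.12 CPM in WT and 2.51, 2.45, 3.82 and 2.52 CPM in cKO. Replicate 3 stood above the other cKO libraries, which were within 0.1 CPM of each other and all above WT. It rose from 1.15 ± 0.104 CPM in WT to 2.83 ± 0.665 CPM in cKO (SD, n = 4 each), 2.46-fold with a 95% interval of 1.87 to 3.25 (log2 change 1.30, SE 0.18, edgeR adjusted p = 0.000553). Adamts9, another versican protease, read 1.06, 0.802, 0.894 and 0.492 CPM in WT and 1.05, 0.748, 0.628 and 1.12 CPM in cKO and overlapped, with a log2 change of 0.13 (95% interval -0.47 to 0.72, edgeR adjusted p = 0.761).

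The protein-coding genes nearest to this pair on chromosome 16 were far from it. Before it lay Cyyr1 at 243 kb (log2 change 0.55, edgeR adjusted p = 0.0701) and App at 619 kb (log2 change 0.55, edgeR adjusted p = 0.00222), and after it N6amt1 at 1453 kb (log2 change 0.03, edgeR adjusted p = 0.856) and Ltn1 at 1476 kb (log2 change 0.28, edgeR adjusted p = 0.0404), of which App and Ltn1 passed. Adamts8, 20 kb from Adamts15, had at most 3 counts in any library. St14, the membrane protease matriptase, lay 125 kb from Adamts8 and rose from 0.659 to 1.97 CPM (log2 change 1.58, edgeR adjusted p = 0.000221). The other nearest genes, Snx19 at 432 kb (log2 change -0.12, edgeR adjusted p = 0.170), Ntm at 936 kb (log2 change 0.36, edgeR adjusted p = 0.125) and Zbtb44 at 66 kb (log2 change 0.01, edgeR adjusted p = 0.961), did not pass.

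Of the procollagen N-proteinases, Adamts2 rose and Adamts14 came close to the threshold. Adamts2, which removes the amino propeptide of fibrillar procollagens (chromosome 11, 50602085 to 50807573), read 3.10, 3.59, 3.21 and 2.50 CPM in WT and 7.27, 5.79, 6.43 and 6.64 CPM in cKO. Every cKO library was above every WT library. It rose from 3.10 ± 0.448 CPM in WT to 6.53 ± 0.611 CPM in cKO (SD, n = 4 each), 2.11-fold with a 95% interval of 1.73 to 2.57 (log2 change 1.08, SE 0.13, edgeR adjusted p = 0.000223). Adamts14, with the same kind of activity, read 1.82, 1.89, 1.26 and 1.64 CPM in WT and 2.74, 3.03, 2.18 and 1.79 CPM in cKO. WT replicates 1 and 2 lay above the lowest cKO library, replicate 4. Its log2 change of 0.56 (95% interval 0.13 to 0.98, edgeR adjusted p = 0.0502) came just short of the threshold and passed it under 7 of 15 other settings. Adamts3, the remaining member of this group, had 9, 7, 8 and 6 counts in WT and 9, 15, 23 and 11 in cKO, the most of any untested member. The cKO values were mostly higher and the genotypes overlapped.

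Of the remaining Adamts genes, Adamts13 rose, and Adamts6 and Adamts7 had the most negative changes without passing. Adamts13, made in liver chiefly by stellate cells, cuts von Willebrand factor (chromosome 2, 26973361 to 27009625). It read 6.06, 5.31, 4.63 and 4.92 CPM in WT and 7.58, 6.90, 6.65 and 7.22 CPM in cKO, so that the genotypes were separate by a narrow margin. It rose from 5.23 ± 0.620 CPM in WT to 7.09 ± 0.402 CPM in cKO (SD, n = 4 each), 1.35-fold with a 95% interval of 1.15 to 1.60 (log2 change 0.44, SE 0.11, edgeR adjusted p = 0.0112), the smallest of the 10. For its substrate Vwf the log2 change was 0.37 and the edgeR adjusted p 0.186. Adamts7 read 15.1, 10.6, 9.55 and 5.97 CPM in WT and 6.30, 4.37, 5.95 and 7.36 CPM in cKO and Adamts6 2.84, 3.14, 3.37 and 1.26 CPM in WT and 1.91, 1.73, 1.94 and 1.31 CPM in cKO. In both, WT replicate 4 lay among or below the cKO libraries and the other 3 WT libraries above all of them. Adamts7 had a log2 change of -0.78 (95% interval -1.40 to -0.16, edgeR adjusted p = 0.0596), and without WT replicate 4 it was -0.97 (edgeR adjusted p = 0.00594). It passed as lower under 3 of 17 other settings. Adamts6 had a log2 change of -0.62 (95% interval -1.21 to -0.04, edgeR adjusted p = 0.0973), and without the same library -0.85 (edgeR adjusted p = 0.00334). It passed as lower under 2 of 15 other settings. Adamts10, linked to fibrillin microfibrils, read 13.4, 11.2, 12.6 and 10.5 CPM in WT and 13.7, 14.8, 12.8 and 10.1 CPM in cKO and overlapped, with a log2 change of 0.11 (95% interval -0.16 to 0.37, edgeR adjusted p = 0.531).

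The 23 untested members were all at or below 0.425 CPM in any library, the highest being Adamts3 in cKO replicate 3. A count of 0 allows 0.0511 to 0.0708 CPM, depending on the library. Apart from those given above they were Mmp16, Mmp21, Mmp24, Mmp25, Adamts4, Adamts12, Adamts16, Adamts17, Adamts18 and Adamts19. Mmp24, a membrane-bound Mmp, was the 1 of these whose genotypes did not overlap, with 4, 2, 1 and 3 counts in WT and 5, 9, 8 and 9 in cKO. It partly overlaps BC029722, which rose (log2 change 0.51, edgeR adjusted p = 0.000487). Adamts4, an aggrecanase, had 7, 1, 5 and 2 counts in WT and 4, 4, 6 and 10 in cKO, and Adamts12 had 9, 4, 1 and 0 counts in WT and 9, 7, 9 and 7 in cKO, both overlapping.

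Genes that work with these proteases were read beside all genes tested, of which 15.2% were higher and 14.9% lower. Of 13 tested substrates, 11 were higher, with a median log2 change of 0.88, among them Nid1 (log2 change 1.35, edgeR adjusted p = 4.59e-05), Col4a1 (log2 change 0.87, edgeR adjusted p = 7.31e-05), Lamc1 (log2 change 0.68, edgeR adjusted p = 0.000223) and Fbn1 (log2 change 1.11, edgeR adjusted p = 0.000389). Nidogen, type IV collagen and laminin are basement membrane proteins, and fibrillin builds microfibrils. Acan, the best known aggrecanase substrate, had no count, and Vcan, Bcan, Ncan and 4 others were too low to test. The Adamts-like genes, which resemble Adamts proteins but have no protease part, were higher in 5 of 6, including Adamtsl2, from 11.8 to 18.4 CPM (log2 change 0.65, edgeR adjusted p = 0.000966), Adamtsl1 (log2 change 1.26, edgeR adjusted p = 0.00630), Adamtsl4 (log2 change 0.45, edgeR adjusted p = 0.0138) and Papln (log2 change 0.80, edgeR adjusted p = 0.0152). Of 16 tested genes for procollagen processing and crosslinking, 10 were higher and 2 lower, with a median log2 change of 0.45. The crosslinking enzyme Loxl2 went from 1.71 to 4.27 CPM (log2 change 1.32, edgeR adjusted p = 0.000324) and the collagen chaperone Serpinh1 rose too (log2 change 0.82, edgeR adjusted p = 0.00162), while Bmp1, the procollagen C-proteinase, fell from 172 to 120 CPM (log2 change -0.52, edgeR adjusted p = 0.000868). P4ha3, a prolyl hydroxylase subunit, had 2 counts in the 4 WT libraries and 58 in the 4 cKO libraries (edgeR adjusted p = 0.000649). It had enough counts for the test only through the cKO libraries, in which it is high.

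Of 8 tested Adam proteases, the membrane-bound relatives, 2 were higher and 1 lower (median log2 change 0.25). This count and those below stand beside 15.2% higher and 14.9% lower over all genes tested. Adam10, a sheddase, went from 7.77 to 12.9 CPM (log2 change 0.74, edgeR adjusted p = 0.000951), Adam19 rose (log2 change 0.67, edgeR adjusted p = 0.0271), Adam33 fell (log2 change -0.84, edgeR adjusted p = 0.0121) and Adam15 was not called (log2 change 0.41, edgeR adjusted p = 0.0562). Of 19 tested activators and other inhibitors, 6 were higher and 1 lower (median 0.01). Plat, the tissue plasminogen activator, went from 0.444 to 1.65 CPM (log2 change 1.88, edgeR adjusted p = 0.000366), whereas Plg, the hepatocyte-made plasminogen that it activates, fell from 1764 to 1414 CPM (log2 change -0.32, edgeR adjusted p = 0.0130). Sparc (log2 change 0.82, edgeR adjusted p = 0.000113), Thbs1 (log2 change 1.62, edgeR adjusted p = 0.000869) and Thbs2 (log2 change 1.20, edgeR adjusted p = 0.00185), which bind matrix or Mmps, rose. Of 13 cathepsins and their inhibitors, 5 were higher and 2 lower (median 0.16), with Ctsl (log2 change 0.40, edgeR adjusted p = 0.00438) and Ctsd (log2 change 0.38, edgeR adjusted p = 0.00903) higher and Ctsc (log2 change -0.46, edgeR adjusted p = 0.00484) and Ctsh (log2 change -0.33, edgeR adjusted p = 0.00959) lower.

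Markers of the cells that could hold these transcripts were also read. For comparison with the counts of these lists, 15.2% of all genes tested were higher and 14.9% lower. The stellate and fibroblast list shares Col1a1, Col1a2, Col3a1 and Reln with the substrates. Its top genes by p were Lrat (log2 change 1.45, edgeR adjusted p = 3.02e-06), Dcn (log2 change 1.57, edgeR adjusted p = 4.27e-06), Pdgfra (log2 change 1.63, edgeR adjusted p = 1.47e-05) and Lum (log2 change 1.89, edgeR adjusted p = 1.72e-05). Of 5 tested genes of activated myofibroblasts 2 were higher, Postn (log2 change 0.86, edgeR adjusted p = 0.000628) and Lox (log2 change 1.45, edgeR adjusted p = 0.0133), while Tagln (log2 change 0.34, edgeR adjusted p = 0.142) and Acta2 (log2 change -0.60, edgeR adjusted p = 0.414) did not pass and Grem1 had no count. The myofibroblast sum was 5.05 to 7.84 TPM in WT and 9.16 to 11.4 TPM in cKO. Macrophage markers Gpnmb (log2 change 1.90, edgeR adjusted p = 0.000408), Cd63 (log2 change 2.85, edgeR adjusted p = 0.00114) and Cd9 (log2 change 1.07, edgeR adjusted p = 0.00162) rose and Spp1 fell (log2 change -0.68, edgeR adjusted p = 0.000836). T and NK cell markers were higher in 7 of 12 and summed to 6.44 to 10.5 TPM in WT and 14.8 to 46.8 TPM in cKO. Neutrophil markers summed to 19.1 to 126 TPM in WT and 33.6 to 52.7 TPM in cKO, with Ly6g at 0, sinusoidal endothelial markers to 101 to 195 TPM in WT and 159 to 236 TPM in cKO and B cell markers to 7.88 to 14.7 TPM in WT and 8.14 to 15.6 TPM in cKO, and all 3 sums overlapped. In these 3 lists edgeR called 0 of 5, 0 of 12 and 0 of 8 tested genes, against 0, 2 and 1 at an unadjusted p of 0.05 and 1, 2 and 0 called by DESeq2. Smooth muscle and portal fibroblast markers were higher in 4 of 10, mesothelial in 1 of 5 and cholangiocyte in 3 of 8 with 1 lower, and each of these 3 sums overlapped between genotypes. Of 11 hepatocyte markers, 1 was higher and 6 lower.

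The genes of smallest p in these lists follow with their log2 changes. Among T and NK cell markers they were Cd8a (2.64, edgeR adjusted p = 0.00170), Ccl5 (2.06, edgeR adjusted p = 0.00383), Nkg7 (1.12, edgeR adjusted p = 0.0112) and Cd3d (1.00, edgeR adjusted p = 0.0126), all higher. Smooth muscle and portal fibroblast markers gave Cd34 (0.90, edgeR adjusted p = 0.00413), Eln (0.88, edgeR adjusted p = 0.00601), Fbln2 (1.28, edgeR adjusted p = 0.0120) and Mfap4 (0.59, edgeR adjusted p = 0.0169), also higher. Cholangiocyte markers gave Tspan8 (2.65, edgeR adjusted p = 1.50e-05), Epcam (1.50, edgeR adjusted p = 0.000586) and Krt7 (1.13, edgeR adjusted p = 0.00313), all higher, beside the Spp1 already given. Hepatocyte markers gave Apoa2 (-0.69, edgeR adjusted p = 0.00121), Serpina1c (-0.62, edgeR adjusted p = 0.00152), Ttr (-0.68, edgeR adjusted p = 0.00224) and Fgb (-0.46, edgeR adjusted p = 0.0118), all lower, and Cps1 was higher (log2 change 0.58, edgeR adjusted p = 0.0165). Among Kupffer cell markers Marco was higher (log2 change 0.61, edgeR adjusted p = 0.0159), while Timd4 (-0.27, edgeR adjusted p = 0.367), Folr2 (-0.30, edgeR adjusted p = 0.407) and Adgre1 (0.36, edgeR adjusted p = 0.478) did not pass. Among mesothelial markers Wt1 was higher (log2 change 0.93, edgeR adjusted p = 0.0207), while Gpm6a (1.01, edgeR adjusted p = 0.0725), Krt19 (0.56, edgeR adjusted p = 0.106) and Upk3b (-0.31, edgeR adjusted p = 0.794) did not pass. Neutrophil markers Retnlg (1.79, edgeR adjusted p = 0.135), S100a8 (1.21, edgeR adjusted p = 0.142), Lcn2 (-1.38, edgeR adjusted p = 0.222) and S100a9 (0.76, edgeR adjusted p = 0.330), B cell markers Cd79b (-0.60, edgeR adjusted p = 0.0883), Pax5 (-0.48, edgeR adjusted p = 0.435) and Ighd (-0.36, edgeR adjusted p = 0.496) and endothelial markers Lyve1 (1.03, edgeR adjusted p = 0.0798), Bmp2 (0.61, edgeR adjusted p = 0.108), Pecam1 (0.41, edgeR adjusted p = 0.197) and Oit3 (0.45, edgeR adjusted p = 0.316) did not pass. The part of any of these in the members' changes was not tested.

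**Figure D5:**
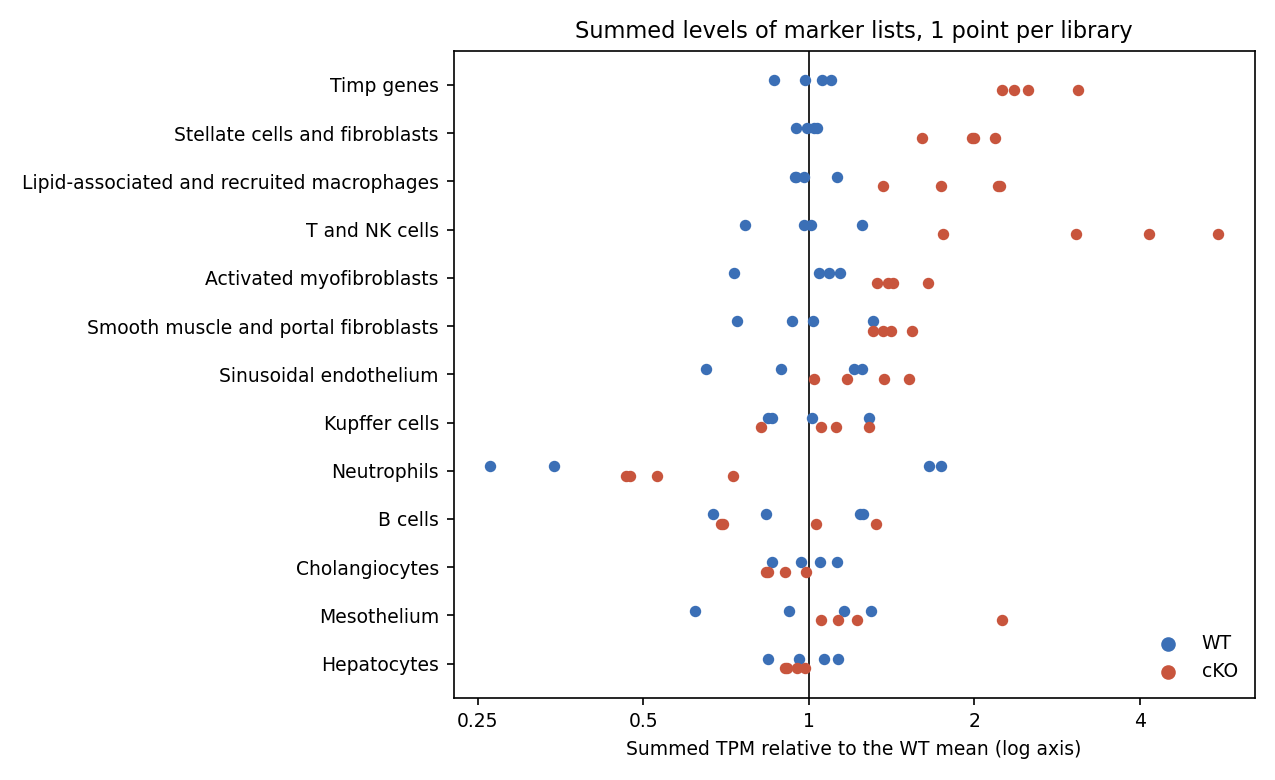
Summed TPM of each cell type's markers, relative to the WT mean, in the 8 libraries. The stellate and fibroblast, lipid-associated macrophage, myofibroblast and T and NK cell sums lie higher in all 4 cKO libraries, and the B cell, Kupffer cell and endothelial sums overlap.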

How the data were processed

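Liver RNA of 4 WT and 4 cKO samples was sequenced. Per the submitters' processing notes, STAR 2.5.1 made the alignments and RSEM the gene estimates, on mm10. No source used here names the RSEM version, the annotation or whether strand was counted. The authors deposited RSEM expected counts, which divide reads that fit several genes, and effective lengths per gene and library. The TPM that the authors deposited are those estimates per length with equal library totals. The deposited FPKM were not used here. Shared reads make paralogs and overlapping genes uncertain.

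Expected counts were rounded. Genes were kept with filterByExpr by genotype (minimum count 10, total 15), scaled with TMM and tested in edgeR 4.0.16 (R 4.3.3) with a robust quasi-likelihood fit and Benjamini-Hochberg adjustment over 15562 genes. CPM were scaled to totals times TMM factors. DESeq2 1.42.0 and limma 3.58.1 on log2(TPM + 1) or log2(TPM + 0.1) served as alternatives, with other scalings, filters, a length offset, a replicate block and each library left out. The limma fits used genes of at least 0.5 TPM in 4 libraries. No 2 libraries of a genotype agreed within sampling noise. On simulated data of 15344 genes, 92.5% of 2-fold and 62.7% of 1.5-fold changes were recovered and 6.08% of calls were false. Members and lists were chosen with earlier results of these data known. Every tested member is named, with values per library for the called ones, the Timps and those of at least 1 TPM, and of each list the 4 genes of smallest p, of which 1 is not reported here. Gene positions and promoters come from RefSeq (GRCm38.p6), of which all 46 members matched for positions. Planned protein sequence features were not used here.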

Additional observations from a re-analysis of the deposited data

Results flagged for a closer look

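Adamts15 read 3.82 CPM in cKO replicate 3, apart from the other 3 cKO libraries at 2.45 to 2.52 CPM, a gap of 0.951 of the range. In groups of 4, chance can also set a library apart, and of 46 groups of 1 gene and 1 genotype looked at, 1 was flagged. Adamts15 kept its call under each of the 17 alternatives, cKO replicate 3 left out among them.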

How the results depend on the processing

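All 10 called members kept their direction and call under each of the 17 alternatives that gave a value, with 9 to 14 members higher. Members lower were 1 with DESeq2 and 1 with the length offset (Adamts7 in both), 1 with the replicate block (Adamts6), and 0 to 2 when 1 library was left out, 2 being Adamts6 and Adamts7 without WT replicate 4. Of the 13 uncalled members, 7 passed under at least 1 alternative. Over all genes, library size alone gave 3603 higher and 1318 lower (73.2% of calls higher, against 50.5%), and limma gave 816 lower on log2(TPM + 1) and 798 lower on log2(TPM + 0.1) (81.1% and 81.3% higher). Under these settings the median log2 change of all genes was 0.099, 0.12 and 0.15, against -0.01 in the main fit. The limma fits covered 13364 genes and the main fit 15562. Ctcf was not called by limma, at -0.15 (adjusted p = 0.138) and -0.18 (adjusted p = 0.138). Uncalled genes reversed sign: Mmp27 reached -0.15 without WT replicate 1 (range -0.15 to 0.28) and Adamts9 -0.050 and -0.010 without WT replicate 4 and cKO replicate 4 (range -0.050 to 0.28). The cause was not tested. The labels do not say what the replicate numbers mark. Same-number correlations were 0.0417 to 0.0567 and those of other pairs -0.1045 to 0.0921. In each genotype, 3 of 4 libraries correlated best with their own number, so whether the numbers pair the samples is not settled. With the block, 11 members were higher, Adamts14 added at 0.55 (adjusted p = 0.0312), and 1 lower, Adamts6 at -0.57 (adjusted p = 0.0414), and 2525 genes were higher and 2419 lower. A count of 0 allows up to 0.0708 CPM, and the untested members rest on at most 88 counts each over the 8 libraries. Intervals and limits cover counting error and the spread between samples only.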
